A study of Mus musculus with 18 samples.

Results

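Prl3a1, Prl2c2, Prl2c3, Prl3d1, Prl3b1, Prl8a9 and Prl7d1 are 7 genes of the mouse prolactin family. They were taken by symbol from the authors' deposited comparison table of mouse embryonic fibroblasts, and all 7 were found among its 35734 genes. The table named 26 genes of the family in all, so 19 others are given beside them. The 7 genes were chosen on the RNA contrast described here, so their values in it are a description, with no test. The contrast set fibroblasts expressing Brn2, Myt1l, Ikzf1 and Ikzf4 against fibroblasts expressing Brn2 and Myt1l alone. Both groups were C57BL/6 fibroblasts of the R26-M2rtTA line, which carries the doxycycline-responsive transactivator, infected with inducible lentiviral vectors and kept in doxycycline for 48 h. Brn2 and Myt1l are neuronal transcription factors and were present in every fibroblast library, called BM below, and no library without them was given. Each group had 3 RNA-seq and 3 ATAC-seq libraries, the latter from 50000 nuclei each. Nothing in the labels says whether the replicates were separate cultures or embryos, so their spread may be technical. In addition, 1 retinal multiome ATAC library labelled Muller glia with mCherry (GLAST-CRE ERT2 ; RosaYFP, C57BL/6) was set against 1 labelled Ikzf1/4, for which no tissue, line or strain is stated. Both are described with tamoxifen at 14 days, and the control's run name reads 48 h, per the file headers.

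Prolactin is a pituitary hormone that acts through the prolactin receptor (Prlr), a cytokine receptor that signals through Jak2 and Stat5. In rodents the ancestral gene was duplicated many times, and most of the copies are secreted by trophoblast cells of the placenta or by the decidua. Placental lactogens (Prl3d1 to Prl3d3, Prl3b1) bind the prolactin receptor. Proliferins (Prl2c2, Prl2c3 and Prl2c5) bind the insulin-like growth factor 2 receptor (Igf2r) and were first cloned from serum-stimulated fibroblast lines, and proliferin-related protein (Prl7d1) opposes their action on blood vessel growth. In the mouse genome the family lies at 2 sites on chromosome 13. In GRCm38, Prl2c3, Prl2c2 and Prl2c5 lay at chr13:12790816-13191930 (the Prl2c site), and the main cluster of 23 genes, from Prl to Prl5a1, lay at chr13:27057570-28151595.

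The sequences just before the start sites show which copies are close to each other there. They lie outside the transcripts, whose own identity was not computed here. RefSeq promoters of GRCm38.p6 were found for 22 of the 26 genes and for 6 of the 7, Prl2c2 being without one. Printed are 250 bases before the start, 5′ to 3′ on the gene's strand, for Prl3a1, Prl, the 3 Prl3d copies, Prl2c3 and Prl7d1. Capitals mark GGGAA, the core of the Ikaros family motif, and the GATA motif WGATAR, each on either strand.
Prl3a1: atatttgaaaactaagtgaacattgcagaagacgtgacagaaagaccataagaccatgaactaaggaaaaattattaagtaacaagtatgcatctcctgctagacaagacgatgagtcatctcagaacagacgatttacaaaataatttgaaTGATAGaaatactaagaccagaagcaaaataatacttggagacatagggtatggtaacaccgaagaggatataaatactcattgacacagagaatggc
Prl: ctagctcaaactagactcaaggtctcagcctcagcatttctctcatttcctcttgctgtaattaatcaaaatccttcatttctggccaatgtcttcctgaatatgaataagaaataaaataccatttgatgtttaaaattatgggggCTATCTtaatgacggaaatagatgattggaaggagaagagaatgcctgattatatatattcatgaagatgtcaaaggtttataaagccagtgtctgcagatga
Prl3d1: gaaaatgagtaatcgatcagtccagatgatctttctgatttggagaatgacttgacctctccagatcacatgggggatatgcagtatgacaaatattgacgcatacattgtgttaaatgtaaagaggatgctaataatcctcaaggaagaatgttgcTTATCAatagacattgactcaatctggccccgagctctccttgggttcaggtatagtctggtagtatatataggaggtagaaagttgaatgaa
Prl3d2: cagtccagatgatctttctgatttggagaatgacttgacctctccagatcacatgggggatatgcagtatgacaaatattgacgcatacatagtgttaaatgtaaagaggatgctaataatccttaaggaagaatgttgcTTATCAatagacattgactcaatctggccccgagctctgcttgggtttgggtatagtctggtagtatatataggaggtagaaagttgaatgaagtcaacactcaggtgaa
Prl3d3: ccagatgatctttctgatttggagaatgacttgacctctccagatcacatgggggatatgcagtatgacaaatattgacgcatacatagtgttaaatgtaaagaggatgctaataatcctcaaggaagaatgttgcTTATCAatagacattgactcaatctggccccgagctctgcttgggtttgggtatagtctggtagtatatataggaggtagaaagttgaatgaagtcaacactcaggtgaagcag
Prl2c3: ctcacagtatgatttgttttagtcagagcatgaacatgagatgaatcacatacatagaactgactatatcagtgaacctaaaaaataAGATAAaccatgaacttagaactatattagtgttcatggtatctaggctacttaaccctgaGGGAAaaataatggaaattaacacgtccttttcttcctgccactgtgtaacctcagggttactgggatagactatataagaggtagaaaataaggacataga
Prl7d1: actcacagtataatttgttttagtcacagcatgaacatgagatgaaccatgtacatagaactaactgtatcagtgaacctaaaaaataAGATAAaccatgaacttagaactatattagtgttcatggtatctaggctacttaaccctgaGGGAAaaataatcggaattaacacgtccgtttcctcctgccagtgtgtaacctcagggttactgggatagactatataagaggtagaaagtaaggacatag
These stretches lay at chr13:27259239-27259488 for Prl3a1, chr13:27057320-27057569 for Prl, chr13:27093939-27094188 for Prl3d1, chr13:27121445-27121694 for Prl3d2 and chr13:27156544-27156793 for Prl3d3, all on the plus strand. On the minus strand they lay at chr13:12800080-12800329 for Prl2c3 and chr13:27716738-27716987 for Prl7d1.

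Over the 300-base windows of RefSeq (250 before to 50 after the start), the promoters of Prl3d2 and Prl3d3 were 97.0% identical in a global alignment. Those of Prl3d1 were 87.4% identical to Prl3d2 and 85.4% to Prl3d3. Prl2c3 was 95.3% identical to Prl2c5, and 94.4% to Prl7d1, which lies in the other cluster. Prl8a9 was closest to Prl8a1 at 81.3%. Prl3a1 had no close copy: its highest identity was 54.6%, to Prl6a1, under the median of 55.4% over the 231 pairs.

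A GGGAA core on either strand was present in 16 of the 22 family promoters, and in 62.7% of all 32851 RefSeq promoters. The longer TGGGAA, which contains that core, was present in 7 of 22, and in 25.6% of all promoters; no promoter of the 6 genes held it. Prl3a1 had its GGGAA match 23 bases after the start, outside the printed stretch, and none before it. The POU octamer ATGCAAAT, the type of site Brn2 binds, was found in 1 of 22 promoters, that of Prl2a1, and in 1.7% of all. AAAGTT, the Myt1l core, was found in 6 of 22, the 3 Prl3d copies among them, and in 14.1% of all. WGATAR was found in 15 of 22 and in 29.8% of all, in Prl3a1 starting 98 bases before the start. The family promoters held 34.0 to 44.7% G and C against a median of 52.7% over all promoters, and a match is only a run of letters in this window.

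Prl3a1, a prolactin-like hormone of the placenta, was the gene of the 7 with the largest difference. In the authors' deposited table it (ENSMUSG00000038883) had a mean normalised count of 554 over the 6 libraries and a log2 fold change of 2.96 (standard error, SE, 0.13) with Ikzf1 and Ikzf4, a 7.80-fold difference. It stood at rank 6 by size of rise among 16757 genes with an adjusted p. The authors' table calls it higher at an adjusted p under 0.05 (DESeq2), as it does 2558 genes or 15.3% of those tested. The table holds no value per library and the deposited transcripts carry no gene names, so the level of Prl3a1 in each library was not analysed here. In such bulk libraries, more cells with the transcript and more transcript per cell cannot be told apart.

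The proliferins did not move together in the authors' deposited table. Prl2c2 (ENSMUSG00000079092), an angiogenic growth factor of trophoblast giant cells, had a mean of 136 with a log2 fold change of -0.76 (SE 0.20). The table calls it lower, as it does 2575 genes or 15.4% of those tested. Prl2c3 (ENSMUSG00000056457), its near-identical neighbour, had a mean of 100.5 and a log2 fold change of 0.11 (SE 0.19), not called. Prl2c5, the remaining copy at that site, had a mean of 1.06 and no adjusted p. No source used here says how reads shared by these copies were split between them, so the values of these copies are uncertain.

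Among the placental lactogens, which act on the prolactin receptor, neither of the 2 chosen genes was called in the authors' deposited table. Prl3d1 (ENSMUSG00000057170), placental lactogen I, had a mean of 27.9 and a log2 fold change of 0.29 (SE 0.22). Prl3b1 (ENSMUSG00000038891), placental lactogen II, had a mean of 13.1 and a log2 fold change of 0.09 (SE 0.21). The neighbouring copy Prl3d2, outside the 7, had a mean of 335 and was called lower, with a log2 fold change of -1.17 (SE 0.18). Prl3d3, whose promoter is 97.0% identical to that of Prl3d2, had a mean of 69.6 and a log2 fold change of 0.08 (SE 0.21). The values of these 3 copies are uncertain for the same reason as those of the proliferins.

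The last 2 of the 7 were low. Prl8a9 (ENSMUSG00000006490), a prolactin-like protein of the placenta, had a mean of 19.5 and a log2 fold change of -0.43 (SE 0.22) in the authors' deposited table, not called. Prl7d1 (ENSMUSG00000021348), the proliferin-related protein, had a mean of 2.70 and a log2 fold change of 0.23 (SE 0.12) with no adjusted p. The lowest mean of any gene with an adjusted p was 3.61. Thus 2 of the 6 genes with an adjusted p were called, 1 in each direction, beside 30.6% of all genes tested, and their median log2 fold change was 0.10 beside -0.0004 over all genes tested.

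Among the other 19 family genes, of the 13 with an adjusted p, the authors' table calls 2 higher and 2 lower, a share near the 30.6% of all genes tested. Prl, the pituitary hormone itself, had a mean of 3590 and a log2 fold change of -1.73 (SE 0.21), called lower, at rank 15 by size of fall. Its standard error was large for its level, the median being 0.07 over genes with a mean over 1000. Prl8a2, decidual prolactin-related protein, had a mean of 41.5 and was higher by 0.96 (SE 0.22). Prl6a1, another prolactin-like protein, had a mean of 5.40 and was higher by 0.47 (SE 0.17). Of the remaining genes, 9 were tested and not called (Prl3d3, Prl2b1, Prl8a8, Prl8a1, Prl7b1, Prl7a1, Prl2a1, Prl2c1 and Prl4a1), between -0.46 for Prl8a8 and 0.47 for Prl7b1. The other 6 (Prl2c5, Prl3c1, Prl8a6, Prl7a2, Prl7c1 and Prl5a1) had no adjusted p. Fold changes in this comparison may be shrunk, the median standard error being 0.05 at means under 2 and 0.22 at 10 to 50. Values near 0 at low means thus do not show a lack of change.

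**Figure D1:**
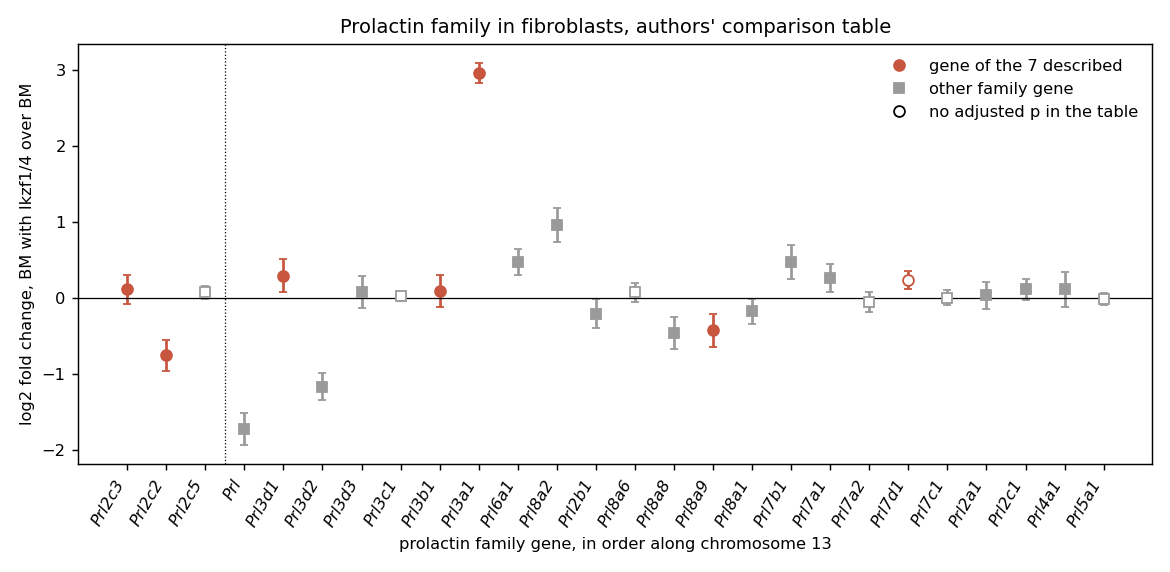
Log2 fold change of BM with Ikzf1/4 over BM (y axis) in the authors' table for the 26 family genes in their GRCm38 order (x axis), with bars of 1 standard error; circles are the 7 genes described, squares the other 19, open symbols have no adjusted p, and the dotted line parts the Prl2c site from the main cluster. Prl3a1 stands at 2.96 and Prl at -1.73, and the 14 genes from Prl2b1 on lie between -0.46 and 0.47. Fold changes may be shrunk, so short bars and values near 0 at low means do not show a lack of change.

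Along the main cluster the called genes lay at one end, which was seen after the values were known and was not tested. All 5 called genes of the cluster (Prl, Prl3d2, Prl3a1, Prl6a1 and Prl8a2) were among the first 9 genes, from Prl to Prl8a2, of which 8 had an adjusted p. Of the 14 genes from Prl2b1 to Prl5a1, 9 had an adjusted p and 0 were called by the authors' DESeq2 analysis, while 2, Prl8a8 and Prl7b1, had an unadjusted p under 0.05. Over all genes tested 30.6% were called. Those 9 were low: all but Prl8a1, with a mean of 109.3, had means between 4.07 for Prl2c1 and 20.9 for Prl4a1. Within the first stretch the directions differed. Prl and Prl3d2 were called lower and Prl3d1, which lies between them, was not called. Prl3a1 and the next genes Prl6a1 and Prl8a2 were called higher, while Prl3b1 on the other side of Prl3a1 was not called. The 3 highest means of the cluster, those of Prl, Prl3a1 and Prl3d2, also stood there, and the share of genes called rose with the mean, from 13.1% at means of 10 to 50 to 33.1% at 100 to 1000 and 40.5% over 1000. The part of level in this order was not tested.

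Genes outside the family on the same chromosome were read from a list of 8, of which 7 were in the table. Dcdc2a had a mean of 32.1 and was called higher (log2 fold change 1.05, SE 0.22), and Gpld1, which encodes a phospholipase, had a mean of 57.8 and was called lower (-0.53, SE 0.21). Sox4, a transcription factor gene beyond one end of the cluster, was at -0.14 (SE 0.07), Cdkal1 at 0.19 (SE 0.12) and Mrs2 at -0.02 (SE 0.08), none called. Hdgfl1, beyond the other end, and Nrsn1 had means of 1.16 and 1.98 and no adjusted p.

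The genes nearest to Prl3a1 were sought among the 3784 genes whose mean was within 2-fold of its own, by the difference in log2 fold change alone, since no library values per gene were at hand. They were Cbln2 at 3.14 (SE 0.12), Sncg at 2.65 (SE 0.12), Pgr15l at 2.64 (SE 0.15), Fgl2 at 2.63 (SE 0.15) and Scn3b at 2.57 (SE 0.10). Cbln2 encodes a secreted synaptic organiser, Sncg gamma-synuclein and Scn3b a sodium channel subunit. The likeness is one of size in 1 contrast.

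A list of 24 receptor and signalling genes was read next, those of prolactin hormones with others such as Gh, Ghr and Igf1. Of these 23 had an adjusted p, and 2 were called higher and 1 lower, beside 30.6% of all genes called. In log2 fold change, Cish, an inhibitor induced by Stat5, was higher by 0.29 (SE 0.11) and Stat3 by 0.28 (SE 0.06), while Ghr, the growth hormone receptor, was at -0.24 (SE 0.06). Prlr, the receptor of prolactin and the placental lactogens, had a mean of 71.8 and a log2 fold change of -0.02 (SE 0.22), not called. Igf2r, the proliferin receptor, had a mean of 15458 and a log2 fold change of 0.13 (SE 0.06), not called. The list's median was -0.03 beside -0.0004 over all genes tested.

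Proliferin is known as a serum-induced gene, so 16 growth-factor and serum response genes were read beside it. All 16 had an adjusted p, and 4 were called higher and 5 lower, with a median of 0.01. Of all genes 30.6% were called, and 40.5% of those with means over 1000, where 11 of the 16 lay. In log2 fold change, Ccn2, a matricellular growth factor, was at -1.09 (SE 0.08), Myc at -1.04 (SE 0.08) and Hmga2 at -0.54 (SE 0.10), all called lower, while the immediate early gene Fos was called higher at 0.49 (SE 0.18).

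Markers of the cells in which the family is normally active were read next. Those of the pituitary were low: all 10 anterior pituitary markers had means under 10, among them Pou1f1, the factor that drives Prl in the pituitary, at 2.11 and Gh at 0.47, with Ghrhr and Fshb at 0. Of 25 trophoblast markers, 15 had means under 10, with Tpbpa, Cts7 and Psg21 at 0, Hand1 at 0.164 and Krt8 at 1.34, and 4 had means over 100, Peg10, Flt1, Gata2 and Gata3. Of the 14 tested trophoblast genes 3 were called higher and 2 lower, beside 30.6% of all genes called. In log2 fold change, Peg10, with a mean of 8746, was at -1.16 (SE 0.16) and Flt1, with a mean of 1574, at -0.76 (SE 0.08). Those called higher were Gata2 at 0.31 (SE 0.09), Eomes at 0.71 (SE 0.23) and Tfap2c at 0.56 (SE 0.19). All 14 fibroblast markers had means over 100, and 10 were called lower, beside 15.4% of all genes called lower, Dcn at -1.77 (SE 0.08) and Col3a1 at -1.29 (SE 0.06) among them. The table gives 1 mean over both groups, so the summed level of a marker list in each group was not analysed here. The part of the lower fibroblast markers in the prolactin values was not tested.

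The contrast itself was checked on the added factors. In the authors' table Ikzf4 was higher by 8.54 (SE 0.15) and Ikzf1 by 7.76 (SE 0.17). The 6 RNA-seq libraries held 34966344 to 44270426 estimated reads. In a separate edgeR test of the deposited transcript counts, 3095 of 43526 transcripts (7.11%) passed an adjusted p of 0.05, without gene names. The count was 728 to 1701 with any 1 library left out and 1849 with no filter on low counts. It was 8 with a replicate block and 7529 with DESeq2.

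Chromatin over the family was read from the ATAC-seq peak lists. The 7 genes were taken by symbol and not by their peaks, but with earlier results of these data known. The lists follow mm9, in which the position of each gene was not used here, so 2 intervals with round bounds were taken, meant to span the family with a margin: 27 to 28.3 Mb of chromosome 13 for the main cluster (the main interval) and 12.75 to 13.35 Mb for Prl2c3, Prl2c2 and Prl2c5 (the Prl2c interval; Prl2c1 lies in the main cluster). The bounds were not checked against mm9 gene positions, every peak count below rests on them, and no peak is assigned to a gene. How ATAC-seq reads that match several near-identical copies were placed is not stated in any source used here. Peaks over such copies, those of the Prl2c interval among them, may therefore not be independent of each other. Scores are the authors' own, 10 times the -log10 q of the peak, and 0 below means that the list holds no peak there. BM replicate 3 stood apart with the shortest list, 131297 peaks against 169646 to 207243 in the other 5, so peak numbers and counts of gained and lost regions are also given without it where they change. Median scores and the shares of regions whose scores did not overlap were not recomputed without it.

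Over the main interval the number of peaks did not separate the groups. The BM libraries had 132, 105 and 51 peaks, and the libraries with Ikzf1/4 had 124, 123 and 118. BM replicate 3 was far below the rest, and BM replicate 1 above every library with Ikzf1/4. The means were 96.0 ± 41.2 (SD, n = 3) and 121.7 ± 3.21 (SD, n = 3), a difference of 25.7 peaks (two-sided exact permutation p = 0.4, smallest possible 0.1). Without BM replicate 3 the difference was 3.2 peaks, and without BM replicate 1 it was 43.7. Per 100000 peaks of a list the counts were 66.0, 61.9 and 38.8 against 62.7, 61.4 and 56.9 (exact permutation p = 0.9). Without BM replicate 3 this difference turned from 4.8 to -3.6.

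The strength of those peaks was compared as well. Peaks with a -log10 q of at least 5 numbered 24, 8 and 4 in the BM libraries and 30, 22 and 29 with Ikzf1/4, and BM replicate 1 lay above the lowest library with Ikzf1/4 (exact permutation p = 0.2). Their difference was 15 peaks, and 11 without BM replicate 3. The median score in the interval was 22, 23 and 27 in BM and 28.5, 29 and 31.5 with Ikzf1/4, groups that did not overlap (exact permutation p = 0.1, the smallest possible). The median score over the whole lists was 29, 26 and 30 in BM and 31, 30 and 32 with Ikzf1/4. The median over the interval was thus under that of its own list in every library, by little with Ikzf1/4. Single peaks were stronger, the highest score of a library being 76 to 154. Over the Prl2c interval the median score was 27.5, 29 and 28 in BM and 32, 38 and 38 with Ikzf1/4. There it was above the list median in every library with Ikzf1/4.

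Over the Prl2c interval the groups did not overlap in number. The BM libraries had 62, 50 and 40 peaks and those with Ikzf1/4 had 70, 67 and 75, means of 50.7 ± 11 and 70.7 ± 4.04 (SD, n = 3 each) and a difference of 20 peaks (exact permutation p = 0.1, the smallest possible). Per 100000 peaks the counts were 31.0, 29.5 and 30.5 against 35.4, 33.4 and 36.2, also without overlap (exact permutation p = 0.1). With a -log10 q of at least 5 they were 18, 5 and 12 against 20, 23 and 29 (exact permutation p = 0.1). Without BM replicate 3 the differences were 14.7 peaks, 4.8 per 100000 and 12.5 at that threshold. Total covered length did overlap, at 52.4, 43.2 and 33.9 kb against 46.8, 45.6 and 50.3 kb (exact permutation p = 0.5). Over the 12 comparisons of both intervals, Benjamini-Hochberg adjustment of the exact permutation p took every 0.1 to 0.2, the 0.2 to 0.3, the 0.4 to 0.533 and the 0.5 to 0.6.

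**Figure D2:**
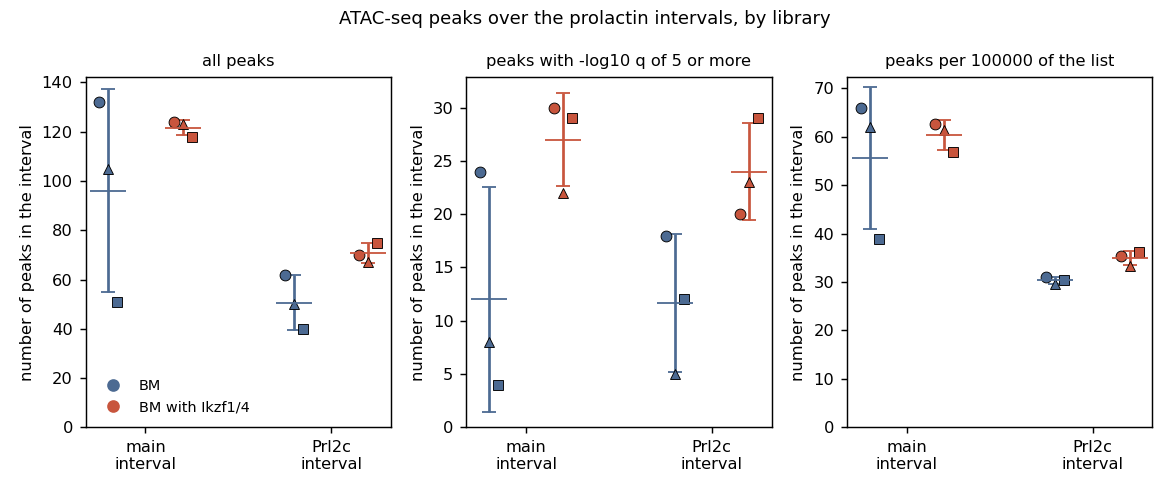
ATAC-seq peaks per library over the main and the Prl2c interval (y axis, number of peaks), for all peaks, for peaks with a -log10 q of 5 or more and per 100000 peaks of the list; circles, triangles and squares are replicates 1, 2 and 3, horizontal lines means and bars the SD. The groups overlap over the main interval, where BM replicate 3 has 51 peaks, and do not overlap over the Prl2c interval.

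Peaks of the 6 lists were merged where they overlapped by 1 bp, which gave 194 regions over the main interval. Of these, 14 (7.22%) were gained, present in all 3 lists with Ikzf1/4 and in no BM list, and 4 (2.06%) were lost, the reverse. Over the genome 9.43% of 321676 regions were gained and 3.67% lost, so both shares over the main interval were under the background. Without BM replicate 3 the lost regions numbered 20 of 193 (10.4%), beside 7.88% over the genome, and without BM replicate 1 the gained ones numbered 23 of 175 (13.1%), beside 13.4%. The Prl2c interval held 103 regions, of which 12 (11.7%) were gained and 2 (1.94%) lost. Without BM replicate 3, 3 of 99 (3.03%) were lost, beside 7.88% over the genome, and without replicate 3 with Ikzf1/4, 4 were lost (4.12%, beside 4.9%). With only peaks of a -log10 q of at least 5 merged, 7 of 51 regions (13.7%) over the main interval were gained. Over the Prl2c interval 9 of 34 (26.5%) were, beside 11% over the genome. Gained here means no BM peak at that threshold, and a weaker one may lie there. At chr13:28240438-28241762, for example, the scores were 35, 17 and 45 in BM and 78, 81 and 65 with Ikzf1/4. In either interval 0 were lost, beside 3.36%. A lost region needs such a peak in all 3 BM lists, so few were possible. BM replicate 3 had 4 such peaks over the main interval and BM replicate 2 had 5 over the Prl2c interval.

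Gained regions of the main interval had a median mean score of 29.2 with Ikzf1/4, beside 29.0 over the 30344 gained regions of the genome. The strongest by mean, chr13:27908404-27908906, had scores of 90, 45 and 55 with Ikzf1/4. The region chr13:28233405-28233962 had 40, 49 and 41, and chr13:27550486-27550707 had 29, 42 and 50. The other 11 had no score over 50. In all, 6 of the 14 lay within 58.9 kb, at chr13:27908404-27967304, a run picked after the positions were seen. Of the 4 lost regions, chr13:27031948-27032662 had the highest scores in BM, 62, 58 and 31, and chr13:27645084-27646670 had 43, 27 and 13. The remaining lost ones were chr13:27120457-27121119 and chr13:28035281-28035887.

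Some regions neither gained nor lost over the full lists differed by more, and are named after their values were seen. At chr13:27866548-27867259 the scores were 11, 13 and 0 in BM and 85, 118 and 109 with Ikzf1/4. At chr13:27681948-27683223, present in every list, they were 31, 19 and 13 against 99, 88 and 75. At chr13:28064622-28065263 the order was the reverse, 154, 48 and 54 against 25, 16 and 0. In each of these the groups did not overlap. Of the 35 main-interval regions in all 6 lists, the scores were higher without overlap in 8 (22.9%) and lower in 3 (8.57%), beside 23.4% and 12.8% of 76980 such regions over the genome. The shares over the interval were near or under that background.

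The 12 gained regions of the Prl2c interval had a median mean score of 34.3. The highest are named after their values were seen. The region chr13:12960099-12960508 had scores of 198, 146 and 166 with Ikzf1/4 and no peak in any BM list, the highest mean score with Ikzf1/4 of the 194 and 103 regions over both intervals. A second, chr13:12888642-12889044, had 59, 86 and 103. At chr13:13209294-13209695 a peak of score 14 in BM replicate 2 stood against 174, 158 and 145 with Ikzf1/4. The 2 lost regions, chr13:12825097-12825361 and chr13:12934733-12935991, had BM scores between 11 and 32. Of the 28 regions in all 6 lists, 8 (28.6%) were higher without overlap and 2 (7.14%) lower, beside 23.4% and 12.8% of 76980 such regions over the genome. Which gene of the interval is nearest to these peaks was not analysed here. Prl2c2 had the lower transcript level in the same contrast and Prl2c3 was not called, so peak gains and RNA are given side by side only.

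**Figure D3:**
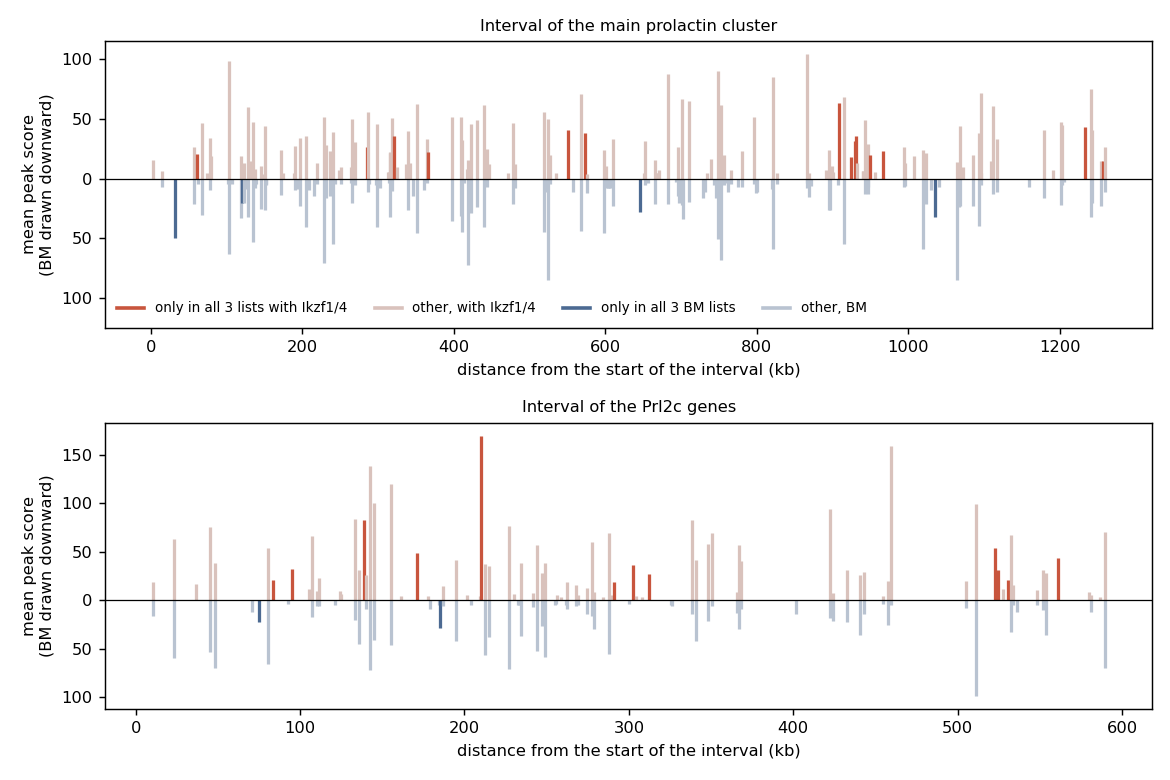
Mean peak score per merged region (y axis; BM with Ikzf1/4 upward, BM downward, a list with no peak counted as 0) against distance from the start of the interval in kb (x axis), for the main interval above and the Prl2c interval below; dark red marks gained and dark blue lost regions. The tallest gained region is in the Prl2c interval, at 210.3 kb with a mean score of 170.0, while gained regions of the main interval stay at or under the mean of 90, 45 and 55.

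In the retinal multiome, unique ATAC fragments were counted over each gene with 2 kb on both sides in mm10. There was 1 library per group, so no test was possible, and the intervals given are exact conditional binomial ones at 95% that cover counting error only. They take fragments as independent, although a barcode could hold several. In barcodes with at least 3000 fragments, the 67 and 22 fragments over Prl3a1 lay in 33 and 11 barcodes. The intervals may thus be too narrow even for counting error. The control library held 52119123 fragments and the Ikzf1/4 library 29358834. Over the family the control had 0.0535 to 0.33 CPM per kb of window (CPM scales fragments to the total of the library), with a median of 0.224, and 8.2% of all genes with at least 20 fragments lay under that median. For comparison Glul and Rlbp1, which mark Muller glia, had 2.84 and 1.04 in the control and 2.60 and 0.984 in the Ikzf1/4 library. The density over the family was thus low beside that of most genes.

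Prl3a1 (chr13:27259489-27276660) had 219 fragments in the control and 78 with Ikzf1/4, 4.2 and 2.66 CPM. The ratio of Ikzf1/4 over control was 0.632 (0.482 to 0.822), opposite in direction to its transcript in the fibroblasts, in other cells and another assay. Prl2c2 (chr13:12996120-13005393) had 37 and 7 fragments, a ratio of 0.336 (0.126 to 0.763), and the lowest density of the family. Over all barcodes it was the only family gene past a 2-fold ratio in either direction, beside 1.07% of 45642 genes lower and 0.0898% higher. With 10 kb on both sides its ratio was 0.758, no longer past 2-fold. In barcodes with at least 3000 fragments, further family genes were past 2-fold. Among them were Prl3d2 at 0.161 on 15 and 2 fragments and Prl6a1 at 0.191 on 38 and 6. The share of all genes past 2-fold in those barcodes was not computed. No source used here says how fragments that match several near-identical copies were placed.

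For the other 5 genes the interval held 1. Prl2c3 (chr13:12790816-12800093) had 100 and 53 fragments, a ratio of 0.941 (0.661 to 1.33). Prl3d1 (chr13:27094189-27100260) had 86 and 47, a ratio of 0.970 (0.665 to 1.40). Prl3b1 (chr13:27242430-27249683) had 129 and 53, a ratio of 0.729 (0.519 to 1.01). These are the proliferin and the placental lactogens. Prl8a9 (chr13:27557995-27564606) had 142 and 69, a ratio of 0.863 (0.637 to 1.16). Prl7d1 (chr13:27708998-27716737) had 154 and 93, a ratio of 1.07 (0.820 to 1.40). Summed over the 7 windows there were 867 and 400 fragments, a ratio of 0.819 (0.726 to 0.923). In barcodes with at least 3000 fragments the summed ratio was 0.492, outside that interval.

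Of the 26 family genes 23 had a ratio under 1, as did 45.2% of all genes, and for 18 of the 26 the interval held 1. The family's median control density was 0.224 CPM per kb, beside 0.45 over all genes with at least 20 fragments. Genes of like low density were not analysed apart, so these ratios cannot be called particular to the family. The family ratios had a median of 0.836, beside a median of 1.02 over all genes and a 5th percentile of 0.669. The whole main cluster had 13431 and 6254 fragments, a ratio of 0.827 (0.802 to 0.852), and the Prl2c site 6038 and 2890, a ratio of 0.850 (0.813 to 0.888). In barcodes with at least 3000 fragments alone, the main cluster's ratio was 0.564 (0.531 to 0.598) and that of the Prl2c site 0.729 (0.670 to 0.794). Over all genes in these barcodes the median was 0.999 and the 5th percentile 0.604. Those are values of single gene windows with at least 20 fragments. They are no background for sums over whole clusters, for which intervals of like length were not analysed. Of the single genes in these barcodes, Prl3a1 was at 0.396 on 67 and 22 fragments, Prl3d1 at 0.628 on 25 and 13, Prl7d1 at 0.53 on 41 and 18, Prl8a9 at 0.274 on 44 and 10 and Prl2c2 at 0.172 on 7 and 1. Prl2c3 was at 0.743 on 26 and 16 and Prl3b1 at 0.787 on 23 and 15. Of the 26 family genes 3 were over 1 there, Prl8a8 at 1.14, Prl2c5 at 1.09 and Prl7a2 at 1.01. These were 1964 barcodes with 34.6% of the control's fragments and 762 with 50.8% of those of the Ikzf1/4 library, and 3 such barcodes occurred in both. The share of fragments outside such barcodes thus differed between the libraries as well, and its part in the ratios was not tested.

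**Figure D4:**
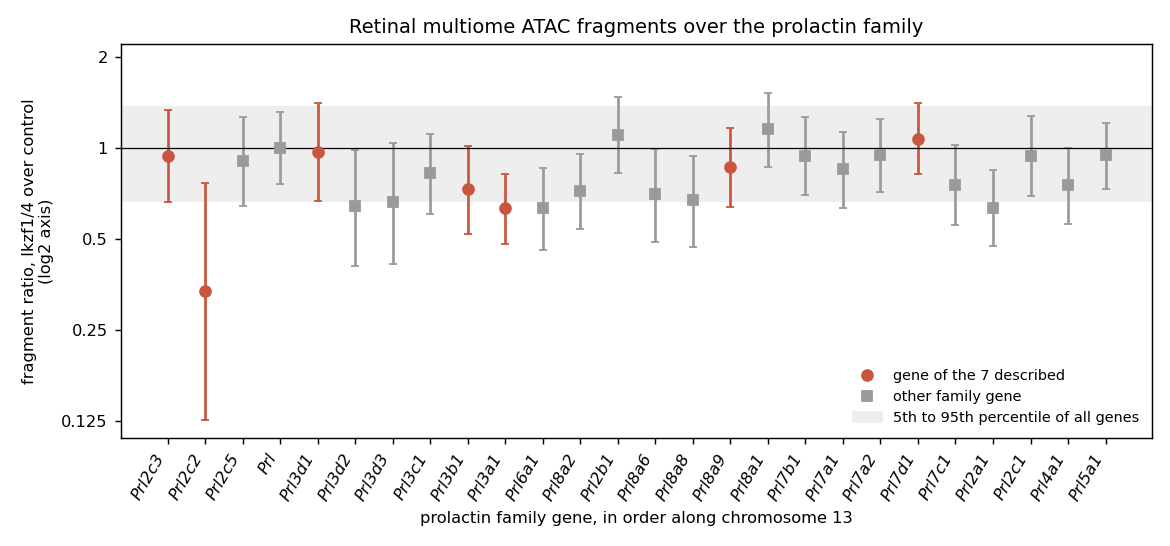
Ratio of ATAC fragment CPM, Ikzf1/4 over control library (y axis, log2 scale), over the 26 family genes in order along chromosome 13 (x axis), with 95% intervals for counting error; circles are the 7 genes described, squares the other 19, and the grey band runs from the 5th to the 95th percentile of all genes (0.669 to 1.36). Prl2c2 stands lowest at 0.336, on 37 and 7 fragments, and 23 of 26 genes lie under 1.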

How the data were processed

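RNA-seq, ATAC-seq and multiome ATAC files were used as deposited. Per the labels, the RNA files are salmon output: the authors deposited estimated counts and TPM per transcript for each library, and TPM was not used. The authors' deposited comparison table, made with DESeq2 per the submitters' processing notes, gives a mean normalised signal, log2 fold change, standard error, Wald score, p-value and adjusted p per gene. Its fold changes may be shrunk, since the median standard error was 0.05 at means under 2 and 0.22 at means of 10 to 50. Per the labels, MACS2 called the peaks of each library. The deposited lists hold a score, a fold over background (ratio), and −log10 of p and q. The submitters' processing notes name mm9 and mm10. Peaks reach base 197160924 of chromosome 1, past the last mm10 fragment at 195371609, so the lists were taken as mm9. Per the file headers, fragment files come from cellranger-arc with an mm10 reference, and the deposited read pair counts per fragment were not used.

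No source used here pairs transcripts with genes, so the planned gene sums could not be made. The test was edgeR 4.0.16 (quasi-likelihood, Benjamini-Hochberg, R 4.3.3) on rounded estimated counts after filterByExpr, with TMM scaling. DESeq2 1.42.0 was an alternative. Exact permutation tests, two-sided, over the 6 libraries (SciPy 1.17.1) compared the numbers of peaks. Merging, overlap counting and the edgeR test were tested on simulated data. Alternatives were other tests, scalings and filters, stricter peaks, other overlaps, windows and barcodes, a replicate block and leaving out each library. Named were the 7 genes, the rest of the family, flanking genes, called genes of the signalling and serum lists (up to 8 and 5 by size, with Prlr and Igf2r), the 5 nearest to Prl3a1, the added factors, and gained and lost peaks. The nearest peak to each start was not analysed, since mm9 gene positions were not used here. The genes and lists were chosen with earlier results of these data known. The single-cell RNA samples were not analysed here. Some genes that the naming rule picked are not reported here.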

Additional observations from a re-analysis of the deposited data

How the results depend on the processing

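Among transcripts, RLE size factors called 2959 and DESeq2 7529, against 3095. No filter on low counts left 1849 calls, leaving out 1 library 728 to 1701 (lowest without replicate 2 with Ikzf1/4), and the replicate block 8. Same-numbered RNA libraries did not deviate together (correlations -0.0171, -0.00051 and 0.00524), nor did ATAC-seq ones (0.00658, -0.0193 and -0.0031), so the numbers are not taken as pairing. The cause of these shifts was not tested. The authors' comparison calls 5133 genes, of which 361 had an absolute log2 fold change over 1, Prl3a1, Prl and Prl3d2 among them.

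The difference in peak number kept its sign under every alternative run but 1: per 100000 peaks and without BM replicate 3, a pairing of choices made after seeing the data, it was -3.6 over the main interval. Leaving out 1 library gave 3.2 to 43.7 peaks over the main interval and 14.7 to 25.7 over the Prl2c interval. The paired permutation (replicate block) gave p = 0.5 and 0.25 on differences of 25.7 and 20, with 0.25 the smallest it allows. Intervals 100 kb longer on both sides, chosen after seeing the data, gave 28 and 24.3. Leaving out 1 library, also chosen after seeing the data, gave 14 to 23 gained and 4 to 20 lost regions over the main interval, and 12 to 17 and 2 to 4 over the Prl2c interval. With only peaks of a −log10 q of at least 5 merged, 7 regions were gained and 0 lost over the main interval. Over the Prl2c interval these numbers were 9 and 0. They are no subset of the 14 and 12 gained regions of the full lists, since a BM peak under that threshold no longer counted.

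The summed fragment ratio of 0.819 was 0.492 in barcodes with at least 3000 fragments, 0.790 with 10 kb on both sides and 0.846 per fragments on chromosome 13. In such barcodes Prl3a1 was at 0.396, Prl3d1 at 0.628, Prl8a9 at 0.274 and Prl7d1 at 0.530, each outside its interval. Member transcripts were not run under these alternatives, being unnamed. With 3 libraries a group, no permutation test could pass 0.05.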
